A study of Mus musculus with 20 samples.

Results

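Hopx-knockout (KO) type 3 multipotent progenitors (MPP3) were compared with Hopx-knockout long-term haematopoietic stem cells (LT-HSC), which are 3 libraries of each, and so 6 of the 20 RNA-seq libraries of the series. The members were taken from the genotype and cell type in the sample labels, and no measured value was used to choose them. The mice, of C57BL/6 background, were 8 weeks of age, and both KO groups carry the Hopx-knockout genotype, so wild-type (WT) libraries enter only the shared estimate of spread. WT MPP3 and WT LT-HSC, with 4 libraries each, were used for the same comparison in Hopx-wildtype mice. Cells were sorted from bone marrow by flow cytometry. The sources used here do not say how the gates were set or what the knockout allele is. Nor do they say whether libraries of different populations share an animal, so p-values measure the spread between libraries, which may be technical. That spread was estimated over all 20 libraries of the series, not over the 6 compared alone.

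LT-HSC sit at the top of blood formation, divide rarely and can rebuild the whole blood system after transplantation. MPP3 are a downstream progenitor population with a bias to granulocytes and monocytes. Surface Cd48 and the loss of Slamf1 (CD150) are among their marks in mice. These are the pair of SLAM-family receptors used to separate stem cells from progenitors. Hopx encodes a small homeodomain-only protein that does not bind DNA by itself and is known for roles in cardiac, intestinal and hair follicle stem or progenitor cells.

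Values are normalized read counts, the deposited reads divided by 1 size factor per library. The 6 libraries held 12094117 to 14658320 reads in genes, with 17609 to 19358 genes detected, and only 18.5% to 21.4% of the counted alignments fell in genes. Hopx, the targeted gene, had 0 reads in all 6 KO libraries. The summed level of 9 LT-HSC markers was 4912, 3584 and 3269 in the KO MPP3 libraries, against 12490, 14908 and 18458 in the KO LT-HSC libraries. The summed level of 6 MPP3 markers was 97003, 122819 and 113688 in KO MPP3, against 714, 387 and 296 in KO LT-HSC. Each population thus carried the markers of its label. KO MPP3 also carried lymphoid-primed progenitor markers, with sums of 12258, 16905 and 13891 over 5 genes. Of the defining markers, Ctsg was at 0 in every KO LT-HSC library, and Hoxb5 was at 0 in replicates 1 and 2 of KO MPP3.

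One KO LT-HSC library stood apart. Replicate 1 had a summed level of 22157 over 6 mature neutrophil markers, against 56.2 and 265 in the other KO LT-HSC libraries and 82.9 to 279 in KO MPP3. Most of that sum was S100a8 (13782) and S100a9 (7682). Lcn2 was 610 and Camp 83.9 in it, and Ltf and Ngp were at 0. The same library had all 5 B cell markers above 0, including Cd79a, with a sum of 1966, whereas Cd79a, Ms4a1 and Pax5 were all at 0 in the other KO LT-HSC libraries. Its 5 lymphoid-primed progenitor markers summed to 1578, against 281 and 187 in the other KO LT-HSC libraries and 12258 to 16905 in KO MPP3. The red cell marker sum overlapped between groups (365 to 1726 in KO MPP3, 169 to 734 in KO LT-HSC), and T and NK cell markers were near 0 throughout (8.5 to 17.8 in KO MPP3, 0 to 2.72 in KO LT-HSC). Macrophage marker sums were 175 to 616 in KO MPP3 and 70.3 to 558 in KO LT-HSC, and stromal and endothelial ones 1.82 to 253 in KO MPP3 and 37.8 to 162 in KO LT-HSC. KO LT-HSC replicate 2 differed in red cell genes, with Car1 at 19947 against 1.09 and 0 in the other KO LT-HSC libraries. Of the WT libraries in the shared fit, WT MPP3 replicates 2 and 3 had mature neutrophil sums of 25029 and 16355 and low Elane, and WT LT-HSC replicate 2 had a sum of 14616. Results without KO LT-HSC replicate 1 are given beside those it touches. In bulk samples, fewer cells of a type and less RNA per cell cannot be told apart.

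**Figure D1:**
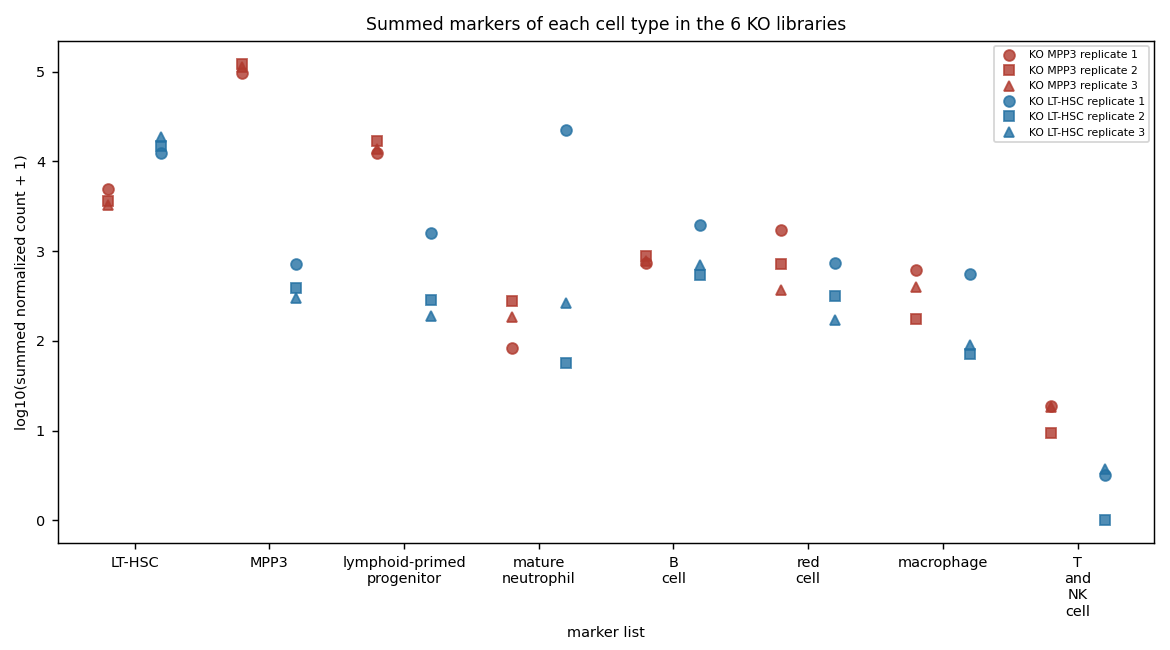
Summed normalized counts of 8 marker lists (log10 of the sum + 1, vertical axis) in the 3 KO MPP3 libraries (red, left of each pair) and the 3 KO LT-HSC libraries (blue, right). The MPP3 and LT-HSC lists separate the groups, and KO LT-HSC replicate 1 is the high blue circle in the mature neutrophil list, at 22157.

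In the test across all genes, limma on log2(value + 1) with Benjamini-Hochberg adjustment, 327 of 17160 genes were called at an adjusted p under 0.05, which is 1.91%. Of these, 156 genes (0.909%) were higher in KO MPP3 and 171 (0.997%) were lower. The median log2 fold change was 4.01 among the higher genes and -3.43 among the lower ones, and it was 0.03 over all genes tested. A fold change of at least 4 on the log2 scale was seen for 79 of the higher and 78 of the lower genes. All 3 libraries of one group lay beyond all 3 of the other for 326 of the 327 called genes; over all genes tested, 10.1% lay wholly higher and 10.3% wholly lower in KO MPP3. Protein-coding genes made up 292 of the 327. Leaving out KO LT-HSC replicate 1 left 212 called genes (1.24%), 190 of them among the 327, and leaving out each of the 6 libraries in turn gave 161 to 212. In all 6 of those fits, 123 of the 327 genes were called. edgeR on the recovered reads called 168 genes (0.934%) and limma fitted to the 6 libraries alone called 542 (3.16%). Median SDs of log2 values over tested genes were 0.358 in KO MPP3, 0.453 in KO LT-HSC and 0.646 in KO MPP2. In WT they were 0.570 in MPP3, 0.440 in LT-HSC and 0.580 in MPP2. No called gene changed direction in any of the 20 alternatives run. For the 326 genes without overlap, leaving out a library or changing the pseudocount could not turn the direction. The labels number the libraries, in ranges whose meaning is not given: KO MPP3 and KO LT-HSC both have libraries in 101 to 106 and in 115 to 120. With the range as a covariate 311 genes were called, 264 of them among the 327. Each KO group held 2 libraries from females and 1 from a male by Xist and Y-linked genes.

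Promoter sequence is shown for the 2 highest and the 2 lowest of the leading genes that have an entry in the RefSeq promoter table (GRCm38.p6), because these 4 genes were almost all on in one population and almost all off in the other. Each stretch lies upstream of both the RefSeq and the GENCODE start, written 5′ to 3′ on the gene's strand; Mpo is shortened to 47 bases for this reason. Capitals mark matches to any of 5 searched motifs on either strand, which were GAGGAAG for PU.1, TGTGGTT for RUNX factors, AGATAA for the GATA family, TTNNGNAA for C/EBP factors and TAACNG for MYB. The regions are chr11:87793534-87793580 (+) for Mpo, chr14:56102575-56102824 (-) for Ctsg, chr1:51288876-51289125 (+) for Cavin2 and chr16:18622404-18622653 (-) for Gp1bb.
Mpo: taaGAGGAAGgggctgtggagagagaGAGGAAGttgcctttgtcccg
Ctsg: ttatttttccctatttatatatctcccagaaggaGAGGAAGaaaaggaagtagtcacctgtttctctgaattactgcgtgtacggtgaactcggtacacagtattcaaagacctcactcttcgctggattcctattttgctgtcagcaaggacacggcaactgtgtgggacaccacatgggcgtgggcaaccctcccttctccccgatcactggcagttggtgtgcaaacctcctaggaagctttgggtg
Cavin2: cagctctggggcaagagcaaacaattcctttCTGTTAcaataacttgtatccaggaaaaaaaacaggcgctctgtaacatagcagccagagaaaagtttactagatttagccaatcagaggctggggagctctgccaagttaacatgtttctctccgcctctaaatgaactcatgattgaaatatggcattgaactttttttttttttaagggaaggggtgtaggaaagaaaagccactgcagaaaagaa
Gp1bb: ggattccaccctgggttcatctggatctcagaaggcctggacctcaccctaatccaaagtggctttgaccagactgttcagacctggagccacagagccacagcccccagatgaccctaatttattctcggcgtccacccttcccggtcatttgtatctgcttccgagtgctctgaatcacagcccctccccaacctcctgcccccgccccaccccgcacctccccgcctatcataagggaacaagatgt
The capitals in Mpo and Ctsg are PU.1 letters, at 247 and 224 bases (Mpo) and 216 bases (Ctsg) before the RefSeq start, and the capitals in Cavin2 are the MYB letters on the opposite strand. Gp1bb held none of the 5 motifs in this window. Over the 250 bases before the start, the PU.1 letters were in 20.4% of the 93 promoters matched to genes higher in KO MPP3, in 11.4% of the 114 matched to lower genes and in 10.4% of all 27025 promoters. The RUNX letters were in 7.53%, 1.75% and 4.46% of the same sets, the GATA letters in 8.60%, 8.77% and 10.2%, the C/EBP letters in 40.9%, 29.8% and 36.9%, and the MYB letters in 15.1%, 20.2% and 19.8%. A match is a description of letters and no test was made of these shares.

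The largest rises in KO MPP3 included genes of granule proteins. Mpo, the myeloperoxidase of neutrophil primary granules (ENSMUSG00000009350, chr11:87793581-87804413), had 84728, 103540 and 98936 normalized counts in KO MPP3, against 22.9, 67.6 and 0 in KO LT-HSC. The KO LT-HSC libraries were all far below the KO MPP3 range, and the log2 fold change was 12.98 ± 2.20 (SE, adjusted p = 0.00372). Gm11505, annotated antisense to Mpo, gave 24356, 29948 and 29020 in KO MPP3 and 0, 22.0 and 0 in KO LT-HSC; the library kit does not mark strand, so reads of Gm11505 and Mpo cannot be told apart where they overlap. Ctsg, the granule protease cathepsin G (ENSMUSG00000040314, chr14:56099881-56102574), had 5689, 8476 and 5833 in KO MPP3 and no read in KO LT-HSC. It was at least 6955-fold higher in KO MPP3, against a floor of 3 counts over the KO LT-HSC group (adjusted p = 0.00236). limma-voom, an alternative that weights each count by its precision, did not call Mpo, Gm11505 or Ctsg (adjusted p = 0.389, 0.140 and 0.0592), and over all alternatives the highest adjusted p of each is that one.

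Ly6c2, a surface protein of inflammatory monocytes, had 1216, 5279 and 4375 normalized counts in KO MPP3, against 1.09, 0 and 0.908 in KO LT-HSC (log2 fold change 10.91 ± 2.24, adjusted p = 0.0135). Ccl9, a chemokine made by myeloid cells, had 2961, 5147 and 6735 in KO MPP3 and 0, 43.9 and 0.908 in KO LT-HSC (10.05 ± 1.43, adjusted p = 0.000956). Both groups were apart in every library for each gene, which the rule that picked the leading genes required. F13a1, the coagulation factor XIII A subunit of monocytes and platelets, had 594, 1499 and 2328 in KO MPP3 and no read in KO LT-HSC, at least 1538-fold higher (adjusted p = 0.0218). Its call was lost when any one of the 6 libraries was left out (adjusted p 0.0567 to 0.0915), and Ly6c2 lost it without KO LT-HSC replicate 2, KO MPP3 replicate 2 or KO MPP3 replicate 3 (0.0381 to 0.0660 over the 6 fits).

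The other 9 of the 15 largest rises had log2 fold changes between 7.74 and 9.59. They include Wfdc17, a secreted small protein of myeloid cells, with 1828, 2174 and 2916 in KO MPP3 and 0, 0 and 24.5 in KO LT-HSC. Ly86, which pairs with the receptor CD180, had 933, 754 and 863 in KO MPP3 and 12, 0 and 0 in KO LT-HSC, and Mcpt8, a protease of basophils, had 388, 1151 and 343 in KO MPP3 and 0, 0 and 12.7 in KO LT-HSC. Each of these was far above its KO LT-HSC range in all 3 KO MPP3 libraries. Chdh, the choline dehydrogenase, had 219, 241 and 195 in KO MPP3 and no read in KO LT-HSC, at least 228-fold higher, with a call in all 20 alternatives. Padi2, a peptidyl arginine deiminase, had 491, 493 and 324 in KO MPP3 and 0, 7.03 and 0 in KO LT-HSC, and was also called in all 20. Ddx4, an RNA helicase known for its role in germ cells, had 188, 311 and 363 in KO MPP3 and no read in KO LT-HSC, at least 300-fold higher, but lost its call without any one library (adjusted p 0.0763 to 0.104). BC035044, Atp8b4 and Rab44 complete the group, with KO MPP3 ranges of 3830 to 5316, 520 to 1571 and 1234 to 1959 and KO LT-HSC ranges of 0 to 91.5, 0 to 38.1 and 0 to 18.2. Ly86 kept its call in 1 of the 6 fits without a library, Atp8b4 in 2 and BC035044 in 4. Of the 15 genes, 9 stayed called in all 6 fits without a library and 9 with edgeR on the recovered reads; limma-voom called 3.

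The largest falls in KO MPP3 included platelet and megakaryocyte genes. Cavin2, a coat protein of caveolae that is abundant in platelets (ENSMUSG00000045954, chr1:51289126-51302960), had 1.05, 0 and 0 normalized counts in KO MPP3, against 1797, 2076 and 4036 in KO LT-HSC. The log2 fold change was -10.93 ± 1.01 (adjusted p = 2.13e-05), and it was called in 19 of 20 alternatives, the exception being limma-voom (0.0792). Gp1bb, a subunit of the platelet receptor for von Willebrand factor (ENSMUSG00000050761, chr16:18620317-18622403), had no read in KO MPP3 and 220, 1875 and 1823 in KO LT-HSC, at least 1350-fold lower in KO MPP3 (adjusted p = 0.00269). Gp1bb overlaps Sept5 on the same strand, and reads they share cannot be assigned to one of them. Pf4, platelet factor 4, had 132, 40.6 and 42.7 in KO MPP3 and 2716, 13815 and 27023 in KO LT-HSC (-7.33 ± 1.19, adjusted p = 0.00253), with the lowest KO LT-HSC level in the library that carried neutrophil transcripts. Without that library the adjusted p for Pf4 was 0.00308, and over all alternatives it reached 0.735, with limma-voom, which also did not call Gp1bb (0.336).

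Slamf1, the receptor whose surface protein is commonly used to sort LT-HSC, had 32.5, 0 and 18.2 in KO MPP3 and 742, 1076 and 1246 in KO LT-HSC (-6.86 ± 1.09, adjusted p = 0.00232), and was called in all 20 alternatives. Runx1t1, a transcriptional corepressor, had no read in KO MPP3 and 301, 159 and 346 in KO LT-HSC, at least 278-fold lower in KO MPP3. Treml1, a receptor of platelet granules, had 2.1, 14.2 and 0 in KO MPP3 and 319, 554 and 627 in KO LT-HSC. These groups did not overlap in any case, which the rule that picked the leading genes required. Timp3, an inhibitor of metalloproteinases, had 0, 0 and 4.54 in KO MPP3 and 291, 919 and 742 in KO LT-HSC.

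Among the other large falls, Reep2, Ocln and Hs3st1 had no read in KO MPP3, and Ehd3, Pls1 and Clec1a had at most 19.8. In KO LT-HSC their levels ran from 74.7 for Hs3st1 to 1048 for Ehd3. Ehd3 is an endosome recycling protein, Ocln the tight junction protein occludin, and Clec1a a C-type lectin receptor. Hs3st1 and Pls1 lost their calls without any one library (adjusted p 0.0661 to 0.108 and 0.0599 to 0.127). Clec1a kept its call in 1 of those 6 fits, Reep2 in 1 and Timp3 in 2. Of the 15 genes, 10 were called in all 6 fits without a library and 10 with edgeR, and limma-voom called 7.

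**Figure D2:**
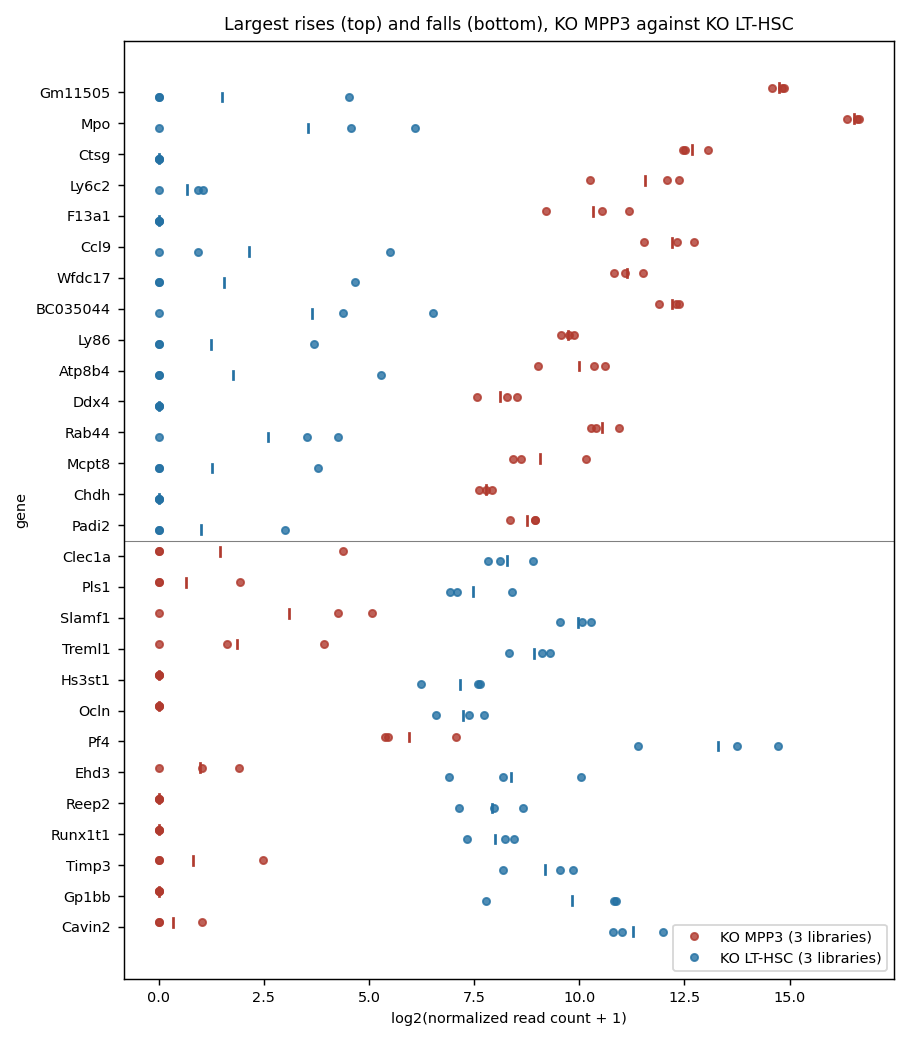
Per-library log2(normalized read count + 1) of the 15 largest rises (above the line) and of the falls named in the text among the 15 largest (below it), with KO MPP3 (red, upper) and KO LT-HSC (blue, lower) and a tick at each group mean. In every gene shown the 3 red points lie wholly to one side of the 3 blue points, because the rule that picked these genes required it.

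The 31 gene lists place these genes in context. Over all genes tested, 1.91% were called, 0.909% higher and 0.997% lower. The lists were chosen with earlier results of these data known, so a share above this background is a description and not a test. Among megakaryocyte and platelet genes, 14 of 27 tested (51.9%) fell in KO MPP3 and none rose. All 27 had a negative fold change, against 8181 of 17160 over all genes. The median log2 fold change was -3.09, against 0.03 over all genes. The most precise was Mmrn1, a platelet granule protein, at 157, 163 and 104 in KO MPP3 and 4643, 5016 and 7787 in KO LT-HSC (-5.34 ± 0.34, adjusted p = 1.59e-07, called in all 20 alternatives). Gp9, the other small subunit of the same platelet receptor as Gp1bb, had 192, 198 and 96.3 in KO MPP3 and 1227, 1260 and 1269 in KO LT-HSC (-3.01 ± 0.37, adjusted p = 0.000320). Vwf, the von Willebrand factor, had 27.3, 41.5 and 10.9 in KO MPP3 and 674, 1405 and 1375 in KO LT-HSC (-5.49 ± 1.13, adjusted p = 0.0137), and lost its call without KO LT-HSC replicate 2 or 3 or KO MPP3 replicate 3 (0.0315 to 0.0786 over the 6 fits). The thrombin receptor F2r (-3.43), the tetraspanin Cd9 (-2.23) and the integrin subunit Itgb3 (-3.09) fell as well. Itga2b, the partner of Itgb3, was 383, 703 and 641 in KO MPP3 and 3635, 4331 and 5050 in KO LT-HSC, with no overlap but an adjusted p of 0.0725. Without KO LT-HSC replicate 1, 13 of the list were called lower; Itgb3 kept its call in 2 of the 6 fits without a library, and F2r and Cd9 in all 6.

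Among stem cell surface and identity genes, 12 of 27 fell (44.4%, against 1.91% called over all genes) and none rose (median -2.31). Without KO LT-HSC replicate 1, 9 were called lower. Beside Slamf1 and Vwf, the list holds Pdzk1ip1, a small membrane protein, at 878, 565 and 415 in KO MPP3 and 3474, 3737 and 3977 in KO LT-HSC (-2.65 ± 0.35, adjusted p = 0.000663). Esam, an adhesion molecule of endothelium and stem cells, had 603, 198 and 464 in KO MPP3 and 2046, 2328 and 2403 in KO LT-HSC (-2.56 ± 0.47, adjusted p = 0.00696). The 3 genes Procr, Ly6a and Kit, often used to recognise stem and progenitor cells, were not called. Procr was 285, 263 and 176 in KO MPP3 and 500, 277 and 1029 in KO LT-HSC (adjusted p = 0.937), Ly6a (Sca-1) was 1050, 1123 and 1191 in KO MPP3 and 1225, 950 and 1510 in KO LT-HSC (0.998), and Kit was 2208, 2464 and 2078 in KO MPP3 and 3022, 3437 and 3516 in KO LT-HSC (0.453). For Procr and Ly6a the library ranges overlapped, and for Kit all KO MPP3 libraries were below all KO LT-HSC libraries.

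Among stem cell transcription factors, 6 of 26 fell (23.1%, against 1.91% called over all genes) and none rose (median -1.19). Meis1, a homeodomain cofactor of Hox proteins, had 2812, 2327 and 2959 in KO MPP3 and 6425, 5896 and 7521 in KO LT-HSC (-1.29 ± 0.23, adjusted p = 0.00615). Mycn had 451, 288 and 267 in KO MPP3 and 2715, 2485 and 2252 in KO LT-HSC (-2.92 ± 0.48, adjusted p = 0.00272), and Gata2 had 1694, 1100 and 2019 in KO MPP3 and 5275, 5628 and 5429 in KO LT-HSC (-1.81 ± 0.32, adjusted p = 0.00526). All 3 were called in all 20 alternatives. Fli1 (-1.31) and Tcf15 (-5.31) fell as well, called in 3 and 2 of the 6 fits without a library. Mecom, a zinc finger factor of stem cells, was 257, 232 and 277 in KO MPP3 and 1086, 799 and 1455 in KO LT-HSC without overlap but was not called (-2.08 ± 0.67, adjusted p = 0.158). Hlf was 1535, 1092 and 1062 in KO MPP3 and 2090, 1414 and 2299 in KO LT-HSC (adjusted p = 0.925), with ranges that overlapped. In the Hox list, 2 of 19 genes were called (10.5%), Meis1 among them. None of the Hox genes tested was called in the main limma fit. Hoxb5 had an adjusted p of 0.0512 and was called in 8 of the 20 alternatives (0.00432 to 0.338), and Hoxb2 was called in 2 (0.0280 to 0.375).

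Primary granule genes rose in KO MPP3: 6 of 19 were called (31.6%, against 1.91% over all genes), all higher, with a median log2 fold change of 2.80. Beside Mpo and Ctsg these were Cst7, an inhibitor of cathepsins, at 1149, 2125 and 1161 in KO MPP3 and 1.09, 76.4 and 97.1 in KO LT-HSC (5.82 ± 1.05, adjusted p = 0.00580), and Nkg7, a granule membrane protein, at 6906, 9976 and 5137 in KO MPP3 and 1401, 1990 and 2571 in KO LT-HSC (1.87 ± 0.33, adjusted p = 0.00510). The serine protease Prss57 (3.77) and the protease inhibitor Serpinb1a (1.60) also rose, with calls in 2 and 0 of the 6 fits without a library. Elane, neutrophil elastase, was 7804, 16051 and 6702 in KO MPP3 and 0, 38.6 and 0 in KO LT-HSC, wholly apart, yet was not called (11.43 ± 3.47, adjusted p = 0.123, 0.0704 without WT MPP3 replicates 2 and 3, and called in 1 of 20 alternatives). The shared estimate of spread includes WT MPP3 replicates 2 and 3, in which Elane was 2.51 and 51.7, against 9331 and 8221 in WT MPP3 replicates 1 and 4. None of 18 mature neutrophil genes was called with limma (1 at an unadjusted p under 0.05) or with edgeR; the list includes S100a8, at 21, 141 and 89.9 in KO MPP3 and 13782, 28.1 and 238 in KO LT-HSC.

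The monocyte and macrophage list had 10 of 24 genes called (41.7%, against 1.91% over all genes), all higher in KO MPP3, and a median of 3.20. Without KO LT-HSC replicate 1, 6 were called. Mpeg1, a pore-forming protein of macrophages, had 107, 270 and 239 in KO MPP3 and no read in KO LT-HSC (adjusted p = 0.000192, called in all 20 alternatives). Tyrobp, a signalling adaptor of myeloid receptors, had 3142, 2724 and 2539 in KO MPP3 and 486, 62.4 and 39.0 in KO LT-HSC (4.70 ± 0.70, adjusted p = 0.00140). The KO LT-HSC library with the neutrophil transcripts was the highest of its group for Tyrobp, and it was still well under the KO MPP3 range. Csf1r, the receptor for macrophage colony-stimulating factor, had 445, 902 and 1307 in KO MPP3 and 46.8, 134 and 133 in KO LT-HSC (3.09 ± 0.61, adjusted p = 0.0107), and was not called without KO LT-HSC replicate 1, KO MPP3 replicate 2 or KO MPP3 replicate 3 (0.0153 to 0.0720 over the 6 fits). The chemokine receptor Cx3cr1 (6.72) and Ms4a6c (3.26) rose too, and neither was called when any one library was left out. The macrophage gene C1qa was 118, 0.944 and 49.1 in KO MPP3 and 163, 14.1 and 23.6 in KO LT-HSC, with full overlap of the ranges.

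Of 20 myeloid transcription factors, 2 rose (10%, against 1.91% called over all genes). Irf8, which directs monocyte and dendritic cell fate (ENSMUSG00000041515, chr8:120736358-120756694), had 2053, 1969 and 2104 in KO MPP3 and 13.1, 0 and 76.2 in KO LT-HSC (7.63 ± 1.27, adjusted p = 0.00295, called in all 20 alternatives). Cebpd had 392, 427 and 257 in KO MPP3 and 78.4, 8.78 and 26.3 in KO LT-HSC (3.67 ± 0.79, adjusted p = 0.0184), and kept its call in 1 of the 6 fits without a library, that without KO LT-HSC replicate 1. Spi1, which encodes PU.1, was 3196, 3016 and 2766 in KO MPP3 and 1560, 828 and 1149 in KO LT-HSC, without overlap, at an adjusted p of 0.0506. It was called in 10 of the 20 alternatives. Cebpa, a factor needed for granulocyte precursors, was 273, 119 and 230 in KO MPP3 and 32.7, 35.1 and 4.54 in KO LT-HSC, without overlap, and was not called (3.38 ± 1.07, adjusted p = 0.148).

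Cytokine and myeloid receptors had 6 higher and 1 lower call among 34 (20.6%, against 1.91% over all genes), and a median of 0.87. With KO LT-HSC replicate 1 left out, the higher calls numbered 2. Flt3, the receptor tyrosine kinase of multipotent and lymphoid-primed progenitors (ENSMUSG00000042817, chr5:147330741-147400489), had 7392, 7354 and 6625 in KO MPP3 and 313, 236 and 159 in KO LT-HSC (4.96 ± 0.95, adjusted p = 0.00887), and was called in all 20 alternatives. Il1r1, the interleukin 1 receptor, had 841, 535 and 435 in KO MPP3 and 34.9, 14.1 and 75.3 in KO LT-HSC (4.07, adjusted p = 0.0169). Il10ra (6.49), Ccr7 (5.54) and Cx3cr1 rose as well. Ccr7 had 35.7, 92.5 and 28.2 in KO MPP3 and no read in KO LT-HSC, which puts it at least 54.4-fold higher. Il1r1 and Il10ra kept their calls in 1 of the 6 fits without a library each, and Ccr7 in 0.

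In the lymphoid priming list, 6 of 29 genes rose (20.7%, against 1.91% called over all genes) and none fell (median 2.16). Without KO LT-HSC replicate 1, 5 were called higher. The 6 include Flt3, Ccr7, the tetraspanin Cd53, the surface glycoprotein Cd52 and Wfdc17, described above as a protein of myeloid cells. The share is thus not one of lymphoid genes alone, and Dntt, Ighm, Il7r and Rag1 were not among the 6. Cd53 had 3229, 6351 and 6421 in KO MPP3 and 201, 39.5 and 20.9 in KO LT-HSC (6.50 ± 1.02, adjusted p = 0.00215), and KO LT-HSC replicate 1 was the highest of its group. Cd52 kept its call in 1 of the 6 fits without a library, that without KO LT-HSC replicate 1 (adjusted p = 0.00251). Dntt, the terminal transferase of lymphoid precursors, was 2484, 5038 and 4441 in KO MPP3 and 599, 44.8 and 6.35 in KO LT-HSC, without overlap, and was not called (6.02 ± 2.42, adjusted p = 0.329; 0.250 without KO LT-HSC replicate 1). Ighm, the immunoglobulin mu heavy chain, was 2374, 4499 and 2774 in KO MPP3 and 607, 0 and 21.8 in KO LT-HSC (7.01 ± 2.48, adjusted p = 0.225; 0.1 without KO LT-HSC replicate 1). Il7r, the interleukin 7 receptor, was 8.40, 13.2 and 50.9 in KO MPP3 and 5.45, 0 and 0 in KO LT-HSC (adjusted p = 0.467). Rag1, a recombinase of antigen receptor genes, had no read in KO MPP3 and 54.5, 0 and 0 in KO LT-HSC. In all 4 genes the KO LT-HSC maximum was replicate 1, the library that also held B cell and neutrophil markers; the part of those transcripts in these values was not tested. None of 16 B cell genes was called with limma (1 at an unadjusted p under 0.05) or with edgeR.

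**Figure D3:**
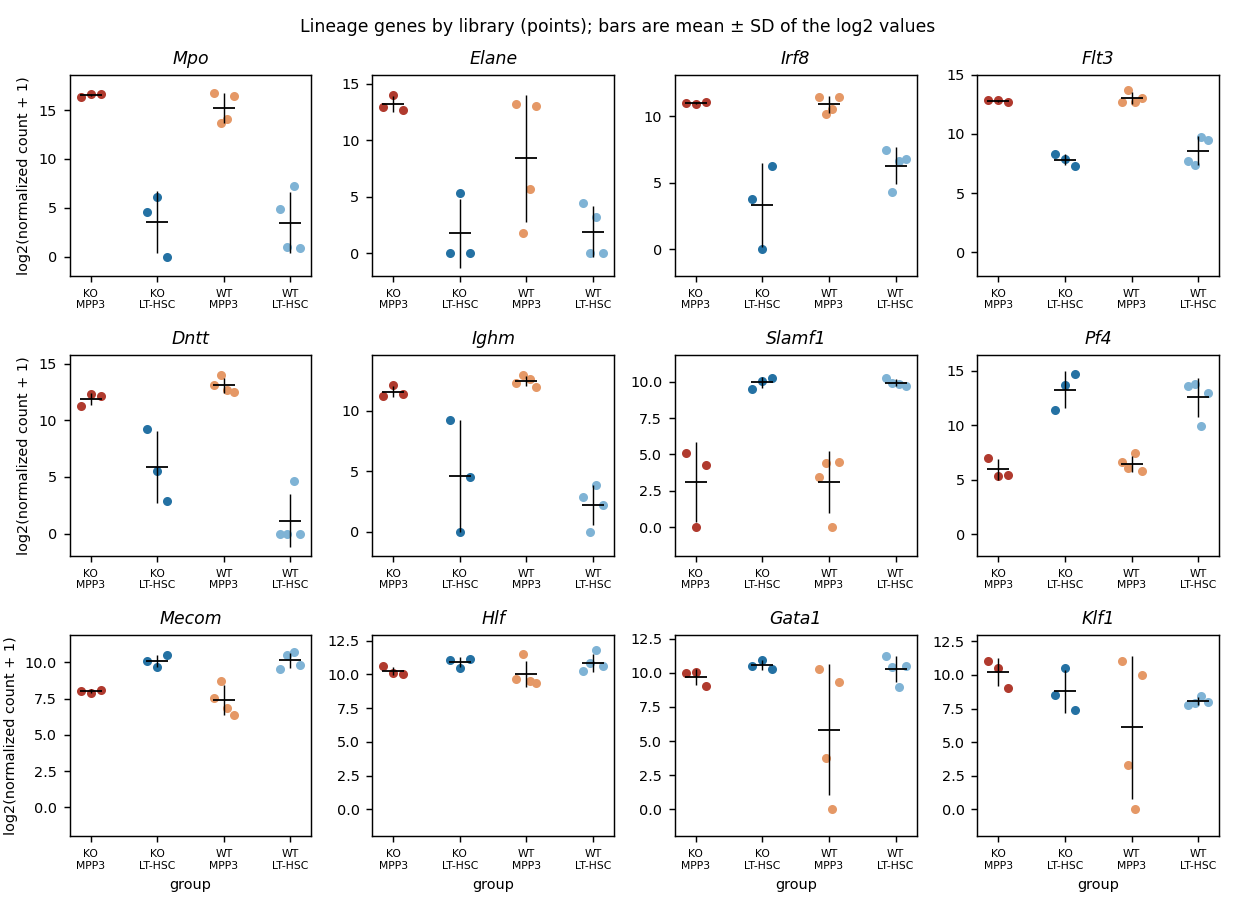
Log2(normalized count + 1) of 12 lineage genes by library in KO MPP3, KO LT-HSC, WT MPP3 and WT LT-HSC, with the mean and SD of the log2 values. Dntt, Ighm, Irf8, Gata1, Klf1 and Elane show the libraries that stand apart, such as Dntt at 599 in KO LT-HSC replicate 1 and Elane at 2.51 in WT MPP3 replicate 2.

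None of the 22 erythroid genes was called with limma (4 at an unadjusted p under 0.05) or with edgeR, and the list had a median of 1.09, with 14 positive and 8 negative fold changes. Gata1, the master factor of red cells and megakaryocytes, was 1035, 1054 and 528 in KO MPP3 and 1454, 2011 and 1227 in KO LT-HSC. Its libraries did not overlap between groups, but it was not called with limma (adjusted p = 0.973, and 0.223 in the fit to the 6 libraries alone). Klf1, a red cell factor, was 2059, 1497 and 515 in KO MPP3 and 358, 1478 and 164 in KO LT-HSC (adjusted p = 0.949), with its KO LT-HSC maximum in replicate 2. The ranges of Klf1 overlapped. Among mast cell and basophil genes, 1 of 14 rose, Mcpt8, and 1 fell, Gata2. Among dendritic cell genes Flt3 was the 1 call of 18, and among T and NK cell genes Nkg7 was the 1 call of 12. The shares called in these lists were 14.3%, 5.56% and 8.33%, against 1.91% over all genes. In the stromal and endothelial list, Vwf and Tek fell and Pdgfrb rose, of 11 genes; Cdh5, an endothelial marker, was at 0 in all 6 libraries, and Vwf and Tek are known in stem cells too. Tek kept its call in 0 and Pdgfrb in 1 of the 6 fits without a library.

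Cell cycle genes were tested in 3 lists. None of 38 DNA replication genes and none of 40 mitosis genes was called with limma, edgeR or the fit to the 6 libraries alone. Of these, 2 and 1 had an unadjusted limma p under 0.05, and the medians were 0.15 and 0.34. A positive fold change was seen for 38 of the 40 mitosis genes, against 8959 of 17160 over all genes. This count was not tested. Mki67, a marker of proliferation, was 2063, 1364 and 1560 in KO MPP3 and 1743, 1133 and 1599 in KO LT-HSC (0.16 ± 0.30, adjusted p = 0.969). Of 27 cell cycle inhibitors and G1 cyclins, 3 were called (11.1%, against 1.91% over all genes). Cdkn1c (p57), an inhibitor of cyclin-dependent kinases tied to stem cell quiescence, had 16.8, 48.2 and 25.4 in KO MPP3 and 233, 216 and 515 in KO LT-HSC (-3.38 ± 0.69, adjusted p = 0.0126). Cdk6, a G1 kinase, had 11615, 10681 and 12020 in KO MPP3 and 7326, 7484 and 5280 in KO LT-HSC (0.79 ± 0.16, adjusted p = 0.0132). Ccnd2, a cyclin that activates Cdk6, had 6066, 5428 and 5093 in KO MPP3 and 8176, 7849 and 10022 in KO LT-HSC (-0.65 ± 0.14, adjusted p = 0.0244). The libraries of Cdkn1c, Cdk6 and Ccnd2 did not overlap between groups. Cdkn1c and Cdk6 lost their calls without KO MPP3 replicate 1, KO LT-HSC replicate 3 or KO MPP3 replicate 3 (highest adjusted p 0.0762 and 0.0796). Ccnd2 lost it in 4 of the 6 fits, those without KO LT-HSC replicate 1 or 3 or KO MPP3 replicate 2 or 3 (highest 0.133).

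Adhesion and homing genes were split, with 5 higher and 1 lower of 39 (15.4%, against 1.91% over all genes) and a median of 0.23. Cd48, the SLAM-family receptor that marks progenitors, had 4928, 6899 and 5851 in KO MPP3 and 476, 2.64 and 66.3 in KO LT-HSC (6.90 ± 1.10, adjusted p = 0.00232). Without KO LT-HSC replicate 1, the highest of its group, the adjusted p of Cd48 was 0.000113; it missed the threshold in 1 alternative, the fit to the 6 libraries alone (0.0515). Cd34, an early progenitor marker, had 16648, 15656 and 17908 in KO MPP3 and 3409, 1777 and 2732 in KO LT-HSC (2.71 ± 0.61, adjusted p = 0.0258), and it lost its call without any one of the 6 libraries (0.0504 to 0.111). Selplg, a leukocyte adhesion glycoprotein, had 4624, 5533 and 5071 in KO MPP3 and 2576, 1714 and 2273 in KO LT-HSC (1.23 ± 0.23, adjusted p = 0.00666). Itgb7 (1.99, called in 2 of the 6 fits without a library) rose and Esam fell.

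Caveola, endocytosis and trafficking genes had 8 falls among 30 (26.7%, against 1.91% called over all genes) and no rise (median -0.91). This list too was chosen with earlier results of these data known. Cavin1, Cavin2 and Cavin3 all fell: beside Cavin2, Cavin1 had 166, 272 and 260 in KO MPP3 and 1018, 1863 and 1427 in KO LT-HSC (-2.61 ± 0.42, adjusted p = 0.00232), and Cavin3 had 182, 155 and 85.4 in KO MPP3 and 577, 638 and 1221 in KO LT-HSC (-2.51 ± 0.40, adjusted p = 0.00236). Tgm2, a transglutaminase, had 49.3, 15.1 and 8.18 in KO MPP3 and 1890, 2058 and 1440 in KO LT-HSC (-6.51 ± 1.11, adjusted p = 0.00391), and Gng11, a G protein gamma subunit, had 402, 364 and 400 in KO MPP3 and 2729, 1729 and 2368 in KO LT-HSC (-2.52 ± 0.34, adjusted p = 0.000790). No library overlapped in these genes.

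Each of 6 further lists held 1 to 3 calls. The share called was 3.33% for TGF-beta and BMP, 3.85% for Wnt, 3.45% for TNF and NF-kB, 5.71% for cytokine feedback, 10% for transporters and detoxification and 16.7% for imprinted genes, against 1.91% over all genes. Tgfbr3, the betaglycan coreceptor, fell and was the 1 call of 30 TGF-beta and BMP genes, at 126, 79.3 and 52.7 in KO MPP3 and 1007, 987 and 1378 in KO LT-HSC (-3.76 ± 0.35, adjusted p = 2.13e-05). Sfrp1, a secreted Wnt antagonist, was the 1 call of 26 Wnt genes, at 0, 0 and 2.73 in KO MPP3 and 64.3, 71.1 and 67.2 in KO LT-HSC (-5.46 ± 0.77, adjusted p = 0.000826). Among 18 imprinted genes, Grb10, Cdkn1c and Snrpn fell; Grb10, an adaptor that restrains growth factor signalling, had 126, 86.9 and 102 in KO MPP3 and 1115, 593 and 840 in KO LT-HSC (-2.98 ± 0.45, adjusted p = 0.00140). Of 35 cytokine feedback genes Cish and Socs2 fell, and neither was called without KO LT-HSC replicate 1. Of 30 transporter and detoxification genes, Aldh1a1, a retinaldehyde dehydrogenase, fell, with 288, 226 and 47.2 in KO MPP3 and 1769, 2551 and 2104 in KO LT-HSC (-3.85 ± 0.66, adjusted p = 0.00374); the efflux pump Abcb1a (-5.33) and the sulfotransferase Sult1a1 (-4.38) fell as well. Abcb1a, Sult1a1 and Snrpn kept their calls in 1, 0 and 1 of the 6 fits without a library. Ccl3, a chemokine, rose and was the 1 call of 29 TNF and NF-kB genes (5.95, called in 2 of the 6 fits without a library). No gene was called among 39 respiratory chain, 43 ribosomal protein, 37 interferon response or 29 immediate early genes, with limma or with edgeR; 2, 2, 2 and 1 of them had an unadjusted limma p under 0.05. The limma fit to the 6 libraries alone called 1 respiratory chain gene, Ndufa4 (adjusted p = 0.0436), 1 interferon response gene, Psmb8 (0.00797; called in 8 of the 20 alternatives), and 1 immediate early gene, Egr1 (0.00540).

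**Figure D4:**
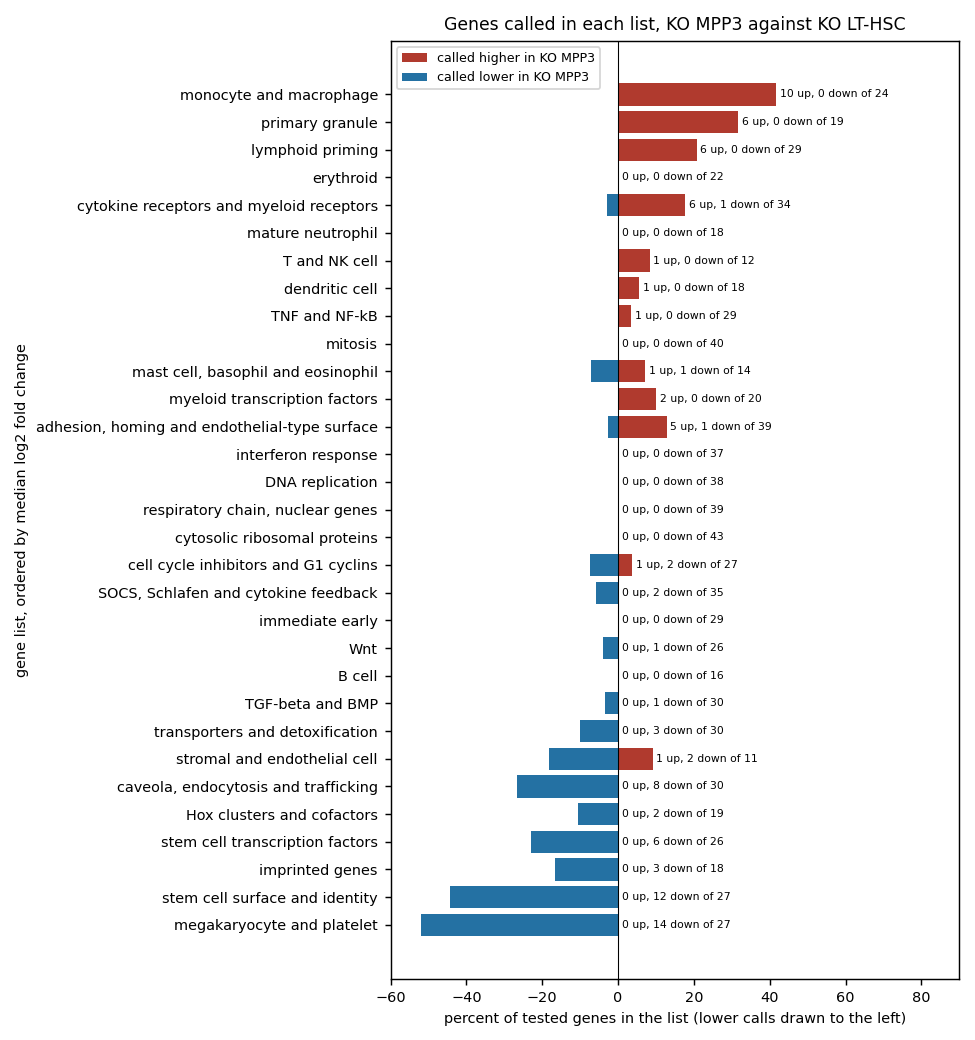
Percent of the tested genes of each list called higher in KO MPP3 (red, to the right) or lower (blue, to the left), with lists ordered by their median log2 fold change. Monocyte and macrophage genes (10 of 24 higher) stand at the top and megakaryocyte and platelet genes (14 of 27 lower) at the bottom; the background over all genes is 1.91%.

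The same step was compared between genotypes. In WT mice 681 of 17160 genes (3.97%) were called, 257 higher (1.5%) and 424 lower (2.47%) in MPP3. The KO and WT calls shared 258 genes, all in the same direction, which is 78.9% of the KO calls and 37.9% of the WT calls. Of the 69 genes called in KO and not in WT, 68 had the same sign in WT, and of the 423 called in WT and not in KO, 415 had the same sign in KO. Of the 30 leading genes, 27 were also called in WT, the exceptions being F13a1, Ddx4 and Hs3st1. No gene was called for a difference of the change between KO and WT, at an adjusted p under 0.05 with limma or edgeR; 357 genes (2.08%) had an unadjusted p under 0.05 with limma and 467 with edgeR, and DESeq2 called 10.

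Several lists had unequal counts of calls in KO and WT. The same held over all genes tested, with 327 calls (1.91%) in KO and 681 (3.97%) in WT. The KO groups hold 3 libraries each and the WT groups 4. In the lymphoid priming list 6 of 29 genes were called higher in KO and 16 in WT, and the median difference of log2 fold changes between KO and WT was -0.59, with 1 of the 29 at an unadjusted p under 0.05. Dntt was 8698, 16951, 6714 and 5950 in WT MPP3 and 0, 0, 23.3 and 0 in WT LT-HSC, and its difference in fold change was -5.92 ± 3.20 (SE, limma, adjusted p = 1). For Il7r the difference was -3.64 ± 2.09, for Ighm -3.23 ± 3.28 and for Rag1 -5.05 ± 1.96, all at an adjusted limma p of 1. KO LT-HSC replicate 1 is the highest KO LT-HSC library for each of these 4 genes. In the monocyte and macrophage list, 10 genes were called in KO and 9 in WT, and in the megakaryocyte and platelet list 14 and 18. The adhesion list had 6 calls in KO and 14 in WT, stem cell transcription factors 6 and 11, transporters and detoxification 3 and 8, and mast cell genes 2 and 6; no gene in any list was called for the difference itself with limma.

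The 5 genes of smallest p with a higher change in KO than in WT were Abca6, Pcdhga7, Popdc2, Inca1 and Gdpd3, and the 5 with a lower change were Fan1, Gm16139, Icmt, AI854703 and Gm15675; none passed the adjustment (adjusted p = 1 for all). Abca6, a lipid transporter of the ABC family, was 16.8, 15.1 and 20.9 in KO MPP3 and 0 in all KO LT-HSC libraries, and it was 0, 0, 0 and 0.902 in WT MPP3 and 0, 0, 5.31 and 0 in WT LT-HSC (difference of log2 fold changes 4.64 ± 1.03). Its level was low, under 21 normalized counts in every library. Fan1, a nuclease of DNA repair, was 56.7, 44.4 and 46.3 in KO MPP3 and 183, 250 and 102 in KO LT-HSC, against 184, 134, 191 and 116 in WT MPP3 and 179, 53.2, 166 and 114 in WT LT-HSC (difference of log2 fold changes -2.15 ± 0.65).

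**Figure D5:**
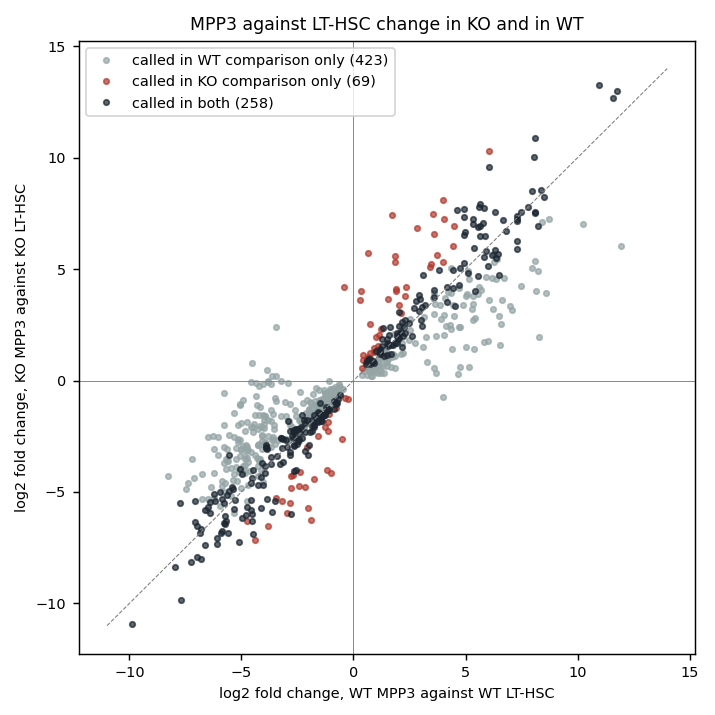
Log2 fold change of KO MPP3 against KO LT-HSC (vertical axis) and of WT MPP3 against WT LT-HSC (horizontal axis) for genes called in either comparison; the dashed line marks equal change. All 258 genes called in both lie in the same direction, and no gene's difference was called with limma.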

How the data were processed

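RNA of sorted bone marrow cells was sequenced from Nextera XT libraries. Reads were aligned with TopHat2 2.1.1 to GRCm38 and counted with HTSeq 0.11.2, and DESeq (version not given) is named for scaling, per the submitters' processing notes. The values the authors deposited are a normalized signal: read counts per Ensembl gene scaled by 1 size factor in each library. Annotation release, strand setting and filters: not given in the sources used here. Whole reads were recovered by dividing by the value of 1 read (tolerance 1e-06) in 18 of 20 libraries; in 2 WT libraries that value was too near 1 to judge, and they were left out of count tests.

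Gene symbols came from GENCODE mouse release 21 for 45143 of 45706 identifiers; 563 had none, and 5 summary entries were left out. limma 3.58.1 (R 4.3.3; trend and robust variances) was run on log2(value + 1) with 6 group means over all 20 libraries, for 17160 genes kept by edgeR 4.0.16's filterByExpr, with Benjamini-Hochberg adjustment and a threshold of 0.05. Fold changes on this scale understate the change of low genes, and bounds against 0 use 3 counts over the group. Alternatives were edgeR, DESeq2 1.42.0 and limma-voom on the recovered reads, other scalings, filters and pseudocounts, covariates, and leaving out libraries. Scripts were tested on simulated data. Named genes were Hopx, the 15 highest and 15 lowest called genes without overlap and with a mean log2 level of at least 6 in the higher group, up to 4 genes per list, and fixed lineage genes; others named inside lists were chosen after their values were seen. Some genes that this rule picks are not reported here. Members and lists were chosen with earlier results of these data known. Bounds cover counting error only, and standard errors (SE) come from the spread between libraries.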

Additional observations from a re-analysis of the deposited data

Results flagged for a closer look

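The KO groups hold 3 libraries each and were not screened for single outlying values; the WT groups of 4 were, for the named genes. Of 82 such groups, 11 had a library set apart from the other 3. Chance flags about 1 in 20 groups of continuous values. Where 3 libraries are at 0, any read in the other is flagged, so the 11 cannot be set against that rate. In WT MPP3 replicate 2, Hlf was 2833 (others 662 to 823) and Ly6a 3572 (others 962 to 1052). In WT MPP3 replicate 3, Itga2b was 1824 (others 297 to 393) and Cdkn1c 201 (others 18.2 to 39.7). These are the 2 WT MPP3 libraries in which Elane was low. In WT LT-HSC replicate 3, Dntt was 23.3, Il7r 3.18, Abca6 5.31 and Gm16139 1.06, each with the other 3 libraries at 0. In WT LT-HSC replicate 2, S100a8 was 6728, against 1.83 to 285 in the others. Abca6 was 0.902 in WT MPP3 replicate 4 and 0 in the others, and Pcdhga7 was 15.1 in WT MPP3 replicate 1, against 0 to 2.51 in the others.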

How the results depend on the processing

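The KO count of 327 became 542 when the fit used the 6 libraries alone, 168 with edgeR and 579 with DESeq2 (tested on recovered reads), and 161 to 212 when each KO library was left out in turn. Of the 327, edgeR called 160, DESeq2 301 and limma-voom 244, and 85 genes were called in every alternative. The WT count of 681 became 236 with edgeR and 444 to 713 without single libraries, with 444 for WT LT-HSC replicate 4. Leaving out both WT MPP3 replicates 2 and 3, an alternative chosen after seeing the data, gave 400 genes in KO and 445 in WT. The difference between genotypes gave 0 calls in every alternative other than DESeq2, which gave 10 (3 with a higher and 7 with a lower change in KO). Signs of uncalled genes turned in single-library fits: Ly6a (lowest and highest log2 fold change -0.28 and 0.054), Mki67 (-0.028 and 0.29) and C1qa (-1.995 and 0.97); the cause was not tested. No paired analysis was possible because the labels carry no replicate numbers. The fit with the labels' library-number range as a covariate gave 311 genes in KO, and among the genes named above F13a1 (adjusted p = 0.0594), Hs3st1 (0.0688), Cish (0.0642), Socs2 (0.0830), Cebpd (0.0506), Itgb7 (0.0599), Snrpn (0.0529), Sult1a1 (0.0642), Ms4a6c (0.0555) and Tek (0.0911) lost their calls in it. Depth was 12094117 to 14658320 reads in genes, so a gene with 0 reads may be present at a low level.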

Other observations

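Red cell genes split the KO LT-HSC libraries. Car1, a carbonic anhydrase of red cell precursors, had 13323, 21953 and 10424 normalized counts in KO MPP3 and 1.09, 19947 and 0 in KO LT-HSC, so KO LT-HSC replicate 2 lay inside the KO MPP3 range and the other KO LT-HSC libraries were at or near 0. Rhd, a red cell membrane protein, was 1516, 1136 and 138 in KO MPP3 and 0, 897 and 0 in KO LT-HSC. The limma adjusted p was 0.453 for Car1 and 0.451 for Rhd. Car1 overlaps Gm16399 on the same strand, so reads of both cannot be told apart. These 2 genes were chosen after their values were seen.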
